A study of Rattus norvegicus with 18 samples.

Results

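Gene expression in primary hepatocytes, the cells that make up most of the liver, was compared between cultures that had received 30 µM EMD for 72 h and cultures that had received the vehicle alone for the same time. The comparison rests on 6 of the 18 arrays of the study, 3 for each group, which were taken by the treatment given in their labels, and it covered the 31042 probe sets of the array that are not controls. The cells came from livers of Wistar rats, and per the study's methods the cells of each animal were divided over all treatments. All cultures were left to attach for 24 h before treatment. All of them were then kept in a medium with insulin at 4 mg/l, hydrocortisone and gentamicin, so the vehicle cultures carried insulin and a glucocorticoid too, and the vehicle was 0.1% DMSO. EMD is a compound known here by its code name alone, and the study describes it as an agonist of both PPARα and PPARγ, members of the nuclear receptor family. The other 12 arrays held vehicle and EMD cultures at 24 h and 100 µM EMD at both times.

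PPARα is a receptor that fatty acids switch on. It binds DNA as a pair with the retinoid X receptor. In the rodent liver it raises the genes that carry fatty acids into mitochondria and peroxisomes and break them down there, and it drives ketone body synthesis and the multiplication of peroxisomes. It is also known to lower some liver genes of inflammation and of amino acid breakdown. PPARγ, a close relative with low levels in hepatocytes, drives the storage of fat in adipocytes.

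A level below is the log2 expression estimate of a probe set, and a change is the mean of the EMD arrays minus the mean of the DMSO arrays on that log2 scale, so that a change of 1 is 2-fold. Changes are given ± the standard error (SE) of the fit, means ± SD with n = 3, and a gene rose or fell where the Benjamini-Hochberg adjusted p of limma's moderated test was under 0.05. The fit took its spread from all 18 arrays and did not pair arrays by replicate number. Values from a fit that did, called the replicate block, are given beside some results. Values in brackets behind a gene are its change, and a call lost or gained names the array left out, or the other setting, with the change or adjusted p it gave. Each gene was read through its probe set with the highest mean level, and changes of other probe sets of the gene are added where they had another call. Levels ran from 2.39 to 14.77 with a median of 5.08 over all arrays, and since no detection call was made a low level cannot be told from background. The arrays of a group correlated at 0.988 to 0.996 and arrays of the different groups at 0.968 to 0.979, over all probe sets. As a sign of RNA quality, the signal at the 3' end less that at the 5' end was taken from the control probe sets. For beta-actin it was 0.698 ± 0.054 with DMSO and 0.848 ± 0.041 with EMD, for GAPDH it was 0.168 ± 0.024 and 0.171 ± 0.038, and for hexokinase 1.570 ± 0.066 and 1.498 ± 0.136. Their part in the results was not tested.

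The label of the cells was checked against markers. Alb, the main plasma protein of the liver, had levels of 14.74, 14.73 and 14.77 with DMSO and 14.75, 14.77 and 14.77 with EMD. These values overlapped and lay at the top of the range of the arrays. Of 12 hepatocyte markers, 11 were above the median of all levels on each DMSO array and 12 on each EMD array. Summed on the linear scale and written as log2, these markers were at 16.40 to 16.58 on the DMSO arrays and 16.17 to 16.24 on the EMD arrays, without overlap. With EMD 3 of them rose (1 without DMSO replicate 1 or 2 or EMD replicate 2) and 5 fell. Asgr1, the hepatocyte's receptor for asialoglycoproteins, rose (1.26 ± 0.14) and Hnf4a, a transcription factor that keeps hepatocyte identity, had a change of 0.02 ± 0.12, adjusted p = 0.94, other probe sets 0.53 and 0.68. Of the macrophage markers 11 of 18 were under the median on all 6 arrays, among them Adgre1, Clec4f and Ptprc. The same was true of 11 of 13 endothelial markers, 12 of 16 markers of stellate cells and fibroblasts and 5 of 9 cholangiocyte markers. Above the median on each DMSO array were 6 macrophage, 2 endothelial, 3 stellate cell and fibroblast and 3 cholangiocyte markers. The median splits all levels evenly, and the share of all genes under it on all 6 arrays was not counted. These counts therefore do not show that such cells were absent.

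Across the array, 5309 probe sets (17.1%) passed the threshold, 2446 higher (7.88%) and 2863 lower (9.22%) with EMD. Read by gene, 3190 of 14217 genes passed (22.4%), of which 1342 rose (9.44%) and 1848 fell (13.0%). A change of at least 2-fold was found in 393 of the genes that rose (2.76% of all) and 428 of those that fell (3.01%). These shares are the background against which the counts in the gene groups below are to be read. For counts given with the replicate block the background is that of the same block, by which 1629 of 14217 genes rose and 2369 fell. More genes fell than rose, also at 2-fold or more, but the most extreme changes were rises. The 20 largest rises with non-overlapping groups went from 3.88 to 8.72 and the 20 largest falls from -2.36 to -4.93. The median change of all genes was -0.01.

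**Figure D1:**
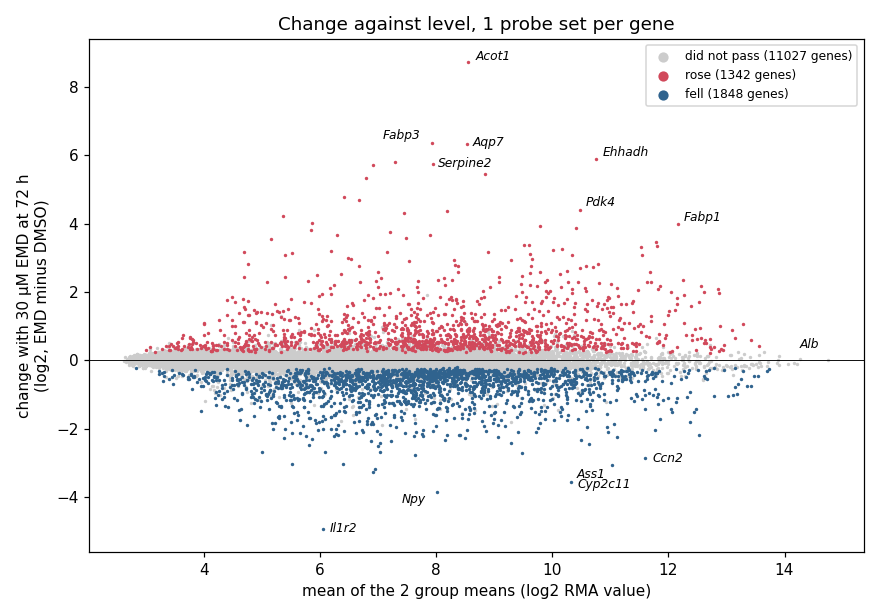
Change with 30 µM EMD at 72 h (y axis, log2 EMD minus DMSO) against the mean of the 2 group means (x axis, log2 RMA value), 1 point per gene. Acot1 stood highest at 8.72, Il1r2 lowest at -4.93, and Alb, with the highest level, lay at 0.01.

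The largest rise was that of Acot1, a cytosolic enzyme that splits long-chain acyl-CoA back into fatty acid and coenzyme A. Its levels were 4.06, 4.31 and 4.21 with DMSO and 12.93, 12.93 and 12.90 with EMD. The EMD arrays spread over 0.03 and lay above the highest DMSO array by at least 8.59, with a change of 8.72 ± 0.09 (adjusted p = 2.1e-19). Aqp7, a channel for glycerol best known from fat tissue, was at 5.72, 5.36 and 5.04 with DMSO and 11.47, 11.97 and 11.66 with EMD, a change of 6.33 ± 0.30. Fabp3, a fatty acid carrier best known from heart and muscle, was at 4.89, 4.84 and 4.51 with DMSO and 11.55, 11.21 and 10.57 with EMD, a change of 6.36 ± 0.31. Ehhadh, which carries out the middle steps of β-oxidation in peroxisomes, was at 7.30, 8.45 and 7.69 with DMSO and 13.71, 13.70 and 13.69 with EMD, a change of 5.89 ± 0.26. Fabp3 and Ehhadh belong to the study's own list of PPARα pathway genes of which 13 of 14 rose, and since the study drew it up for these arrays the count is not independent evidence. In the 4 genes just described every EMD array lay above every DMSO array, as it did in 38.3% of all genes in 1 direction or the other.

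Some of the genes with the largest rises have their known roles outside fat metabolism. Serpine2, a secreted inhibitor of thrombin and other serine proteases, was at 4.79, 4.98 and 5.44 with DMSO and 10.55, 10.93 and 10.96 with EMD (5.75 ± 0.23). Chrna2, a subunit of the nicotinic acetylcholine receptor of neurons, was at 3.64, 4.54 and 3.96 with DMSO and 9.27, 9.92 and 10.12 with EMD (5.72 ± 0.31). The change was 4.79 ± 0.38 for Cacna2d3, an accessory subunit of voltage-gated calcium channels, and 4.68 ± 0.48 for Cd300a, an inhibitory receptor of leukocytes. Slc34a2, a sodium-dependent phosphate transporter, rose by 4.36 ± 0.30 and the chemokine Cxcl12 by 4.00 ± 0.40. Of the 20 genes with the largest rises, 10 had a DMSO mean under the median of all levels, where a level may be background and a change is then compressed.

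**Figure D2:**
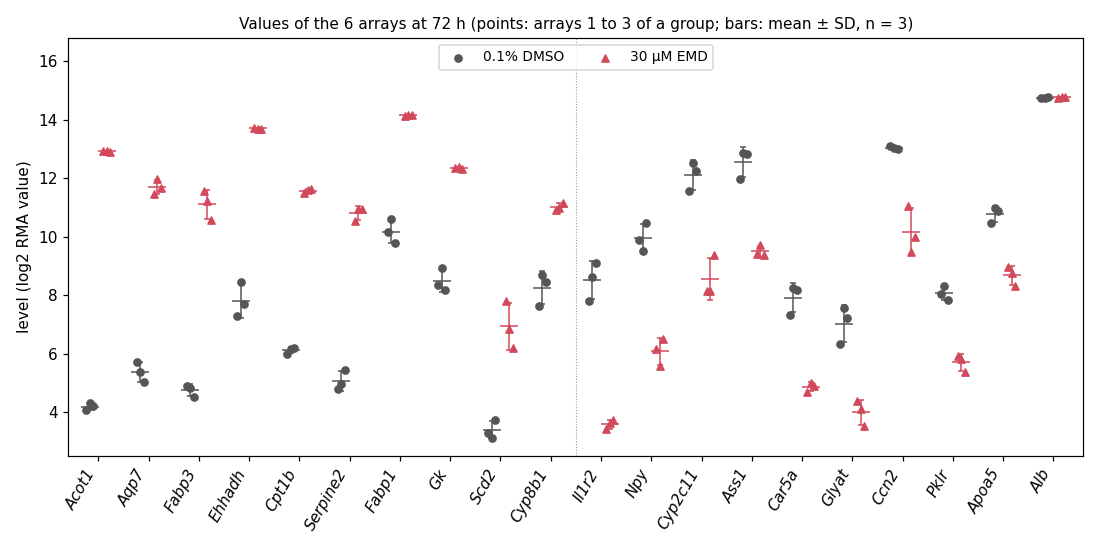
Levels (y axis, log2 RMA value) on the 3 DMSO and 3 EMD arrays at 72 h for 10 genes that rose (left of the dotted line), 9 that fell and Alb; bars are mean ± SD. The groups do not overlap in any gene but Alb, where all 6 arrays lie between 14.73 and 14.77.

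Fatty acid uptake, binding and activation had 11 rises and 4 falls among 30 measured genes. Fabp1, the liver's own fatty acid binding protein, was at 10.15, 10.59 and 9.79 with DMSO and 14.13, 14.17 and 14.15 with EMD, so that the DMSO arrays spread over 0.80 and the EMD arrays over 0.04, and it rose by 3.98 ± 0.19. Cd36, a membrane receptor that takes up fatty acids, rose by 3.30 ± 0.33 and Lpl, which frees fatty acids from lipoproteins, by 1.17 ± 0.11. Among the long-chain acyl-CoA synthetases, which activate fatty acids, Acsl1 (3.34 ± 0.11, other probe sets 0.13 and 4.18) and Acsl3 (3.16 ± 0.14) rose and Acsl4 fell (-0.61 ± 0.12). The probe sets of Acsl1 disagreed, and 1 of the 3 did not pass. The transporters with synthetase activity parted too, with Slc27a2 rising (1.59 ± 0.23) and Slc27a5, the bile acyl-CoA synthetase, falling (-2.36 ± 0.51). Fabp4, the adipocyte form, had a change of 0.26 ± 0.19, adjusted p = 0.43, and Fabp5, the epidermal form, -0.22 ± 0.20, adjusted p = 0.55.

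The element that PPARα binds with its partner is a direct repeat of the half-site AGGTCA with 1 base between, called DR1. A DR1 spelled AGGNCANAGGNCA was looked for on both strands of the RefSeq promoter windows of the GRCr8 build, which hold 250 bases before and 50 after each gene's start, and 139 of 33469 windows (0.415%) held it. It was found in the windows of 7 of 1146 genes that rose (0.611%), 3 of 1542 that fell (0.195%) and 35 of 9045 with neither call (0.387%), counts too small to read a difference from. The 7 genes that rose were Fabp1, Gys2, Cyp2d3, Asgr1, Dnajc19, Als2cl and Zbtb40, and the 3 that fell were Ceacam1, Sardh and Prkar1b. The 250 bases before the start are shown 5′ to 3′ for Fabp1 (chr4:104749090-104749339, plus strand) and for Gys2, the liver glycogen synthase (chr4:177137237-177137486, minus strand), since both genes lie in lipid or glucose metabolism, with the match in capitals. The match begins 77 bases before the start in Fabp1, on the opposite strand, and 80 bases before it in Gys2, on the strand of the gene. A match of letters is a description, and binding was not measured.
Fabp1: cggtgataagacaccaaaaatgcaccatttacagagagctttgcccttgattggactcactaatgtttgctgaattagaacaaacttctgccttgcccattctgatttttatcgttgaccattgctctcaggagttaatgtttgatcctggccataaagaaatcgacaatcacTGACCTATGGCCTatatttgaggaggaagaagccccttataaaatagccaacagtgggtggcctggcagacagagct
Gys2: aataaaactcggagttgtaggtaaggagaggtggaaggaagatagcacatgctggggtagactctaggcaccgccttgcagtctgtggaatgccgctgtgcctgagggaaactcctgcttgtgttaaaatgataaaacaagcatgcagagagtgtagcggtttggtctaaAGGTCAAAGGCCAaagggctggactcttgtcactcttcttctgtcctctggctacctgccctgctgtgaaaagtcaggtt
The level of Gys2 was 8.90, 9.35 and 9.26 with DMSO and 10.78, 10.89 and 10.94 with EMD, a change of 1.70 ± 0.17, with no overlap.

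The acyl-CoA thioesterases, which end the activation of fatty acids in different compartments, rose in 7 of 9 measured genes with no fall, at a median change of 2.57. Beside Acot1 these were Acot4 (2.96 ± 0.15), Acot3 (2.58 ± 0.11), Acot7 (2.57 ± 0.16, other probe set -0.01), Acot12 (2.57 ± 0.26), Acot2 (2.25 ± 0.12) and Acot8 (2.23 ± 0.16), of which Acot2 works in mitochondria and Acot4 and Acot8 in peroxisomes. Acot1 and Acot2 are similar in sequence, and their probe sets may share signal. Acot13 and Acot9 did not pass, at a change of 0.36 ± 0.13, adjusted p = 0.066, a call gained without DMSO replicate 3 (0.44, adjusted p = 0.042) and with dim probe sets left out and the replicate block (adjusted p = 0.044 to 0.047), and 0.11 ± 0.11, adjusted p = 0.6.

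The carnitine shuttle, which brings acyl groups across the mitochondrial membranes, rose in 7 of 12 genes, again with no fall. The muscle form of its first enzyme, Cpt1b, was at 5.99, 6.17 and 6.20 with DMSO and 11.50, 11.61 and 11.62 with EMD, a change of 5.46 ± 0.16. The liver form, Cpt1a, rose by 2.36 ± 0.21. The other rises ran from 2.11 to 3.12, in the carrier Slc25a20 (2.30 ± 0.13), Cpt2 on the inner side (2.11 ± 0.17), the carnitine acetyltransferase Crat (3.12 ± 0.13), the peroxisomal octanoyltransferase Crot (2.54 ± 0.24, other probe sets 0.01 and 2.91) and the carnitine importer Slc22a5 (2.80 ± 0.10). Cpt1c, the brain form, had a change of -0.08 ± 0.11, adjusted p = 0.72, and Slc22a4, a further carnitine carrier, 0.06 ± 0.23, adjusted p = 0.91. The genes that make carnitine did not pass, with Aldh9a1 at a change of -0.17 ± 0.18, adjusted p = 0.62, Bbox1 at a change of 0.26 ± 0.46, adjusted p = 0.79, and Tmlhe at a change of -0.06 ± 0.10, adjusted p = 0.77.

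Mitochondrial β-oxidation rose in 17 of 21 measured genes, with a median of 1.40. The largest rises were those of the medium-chain dehydrogenase Acadm (2.58 ± 0.18) and the isomerase Eci2 (2.29 ± 0.14), followed by Hadha (2.06 ± 0.09, other probe sets 0.12 and 1.80), the α subunit of the trifunctional protein, Eci1 (2.0 ± 0.15, other probe set 0.13), the thiolase Acaa2 (1.96 ± 0.21) and Hadh (1.81 ± 0.10). Of the genes that did not pass, Acadsb, the dehydrogenase of short branched chains, had a change of -0.72 ± 0.28, adjusted p = 0.098, a call gained without DMSO replicate 1 (-1.0, adjusted p = 0.025) and with array weights and the replicate block (adjusted p = 0.00013 to 0.045), and Acad8, which acts on valine's carbon chain, a change of 0.04 ± 0.10, adjusted p = 0.85. The 1 fall was in Ivd, the dehydrogenase of leucine's carbon chain, at -0.36 ± 0.12, a call lost without DMSO replicate 2 or 3 or EMD replicate 1, 2 or 3 (-0.39 to -0.29, adjusted p = 0.078 to 0.17) and with a fit on the compared arrays, cyclic loess and the replicate block (adjusted p = 0.053 to 0.091).

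Of 7 genes of ketone bodies, 3 rose and 1 fell. Acat1, the thiolase that joins 2 acetyl-CoA, was at 9.83, 10.15 and 10.06 with DMSO and 13.01, 13.15 and 13.13 with EMD (3.08 ± 0.13). Bdh1, which reduces acetoacetate, rose by 1.14 ± 0.27, and the exporter Slc16a1 by 0.83 ± 0.07, other probe set -0.12. The fall was in Oxct1, the enzyme by which other tissues use ketone bodies and which the liver is known for lacking, at 6.67, 5.59 and 5.27 with DMSO and 4.86, 4.09 and 4.31 with EMD (-1.43 ± 0.31).

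Peroxisomal fatty acid oxidation rose in 17 of 24 genes with no fall. After Ehhadh the largest changes were in Hacl1, which shortens 2-hydroxy acids (3.92 ± 0.26), Nudt7, a coenzyme A hydrolase (3.27 ± 0.10), Decr2 (2.73 ± 0.19) and Ech1 (2.36 ± 0.17), both for unsaturated acids. Cat, which breaks down the hydrogen peroxide of the pathway, rose by 1.33 ± 0.10, and Acox3, an oxidase of branched acids, by 0.84 ± 0.15. Pecr, the peroxisomal trans-2-enoyl reductase, had a change of -0.03 ± 0.15, adjusted p = 0.94, and Amacr, a racemase of branched acids and bile acid precursors, 0.45 ± 0.21, adjusted p = 0.17, a call gained with the replicate block (adjusted p = 0.0027).

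Of the peroxins and division factors that build the organelle, 8 of 17 rose. Pex11a, which elongates peroxisomes before they divide, was at 8.23, 8.96 and 9.18 with DMSO and 11.84, 11.85 and 11.94 with EMD (3.09 ± 0.23). It was followed by Pex19 (2.36 ± 0.18), Pex16 (1.72 ± 0.14, other probe set 0.18) and Pex3 (1.02 ± 0.18), which insert membrane proteins of the organelle. The import receptor Pex5 rose less (0.91 ± 0.10, other probe set 0.17), and Pex14, its docking partner, had a change of 0.19 ± 0.11, adjusted p = 0.29. The 1 fall was in the division factor Dnm1l, at -0.26 ± 0.08, other probe set -0.20, a call lost without DMSO replicate 2 or 3 or EMD replicate 1, 2 or 3 (-0.27 to -0.21, adjusted p = 0.068 to 0.12) and with a fit on the compared arrays, cyclic loess and an intensity trend (adjusted p = 0.05 to 0.086). Fis1 and Mff, division factors which mitochondria share as well, had changes of -0.08 ± 0.08, adjusted p = 0.61, and -0.03 ± 0.09, adjusted p = 0.89.

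The CYP4 enzymes, which oxidise fatty acids at the far end of the chain, split. Cyp4a1 was at 9.55, 10.71 and 9.93 with DMSO and 13.68, 13.55 and 13.35 with EMD (3.46 ± 0.23) and Cyp4a3 rose by 2.17 ± 0.22, while Cyp4a8, a further 4A form, had a change of -0.52 ± 0.40, adjusted p = 0.46, a call gained without DMSO replicate 1 (-1.09, adjusted p = 0.039). Cyp4f1, of the subfamily that inactivates leukotrienes, fell by 1.12 ± 0.18. The CYP4 genes are similar in sequence, so the probe sets may share signal.

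**Figure D3:**
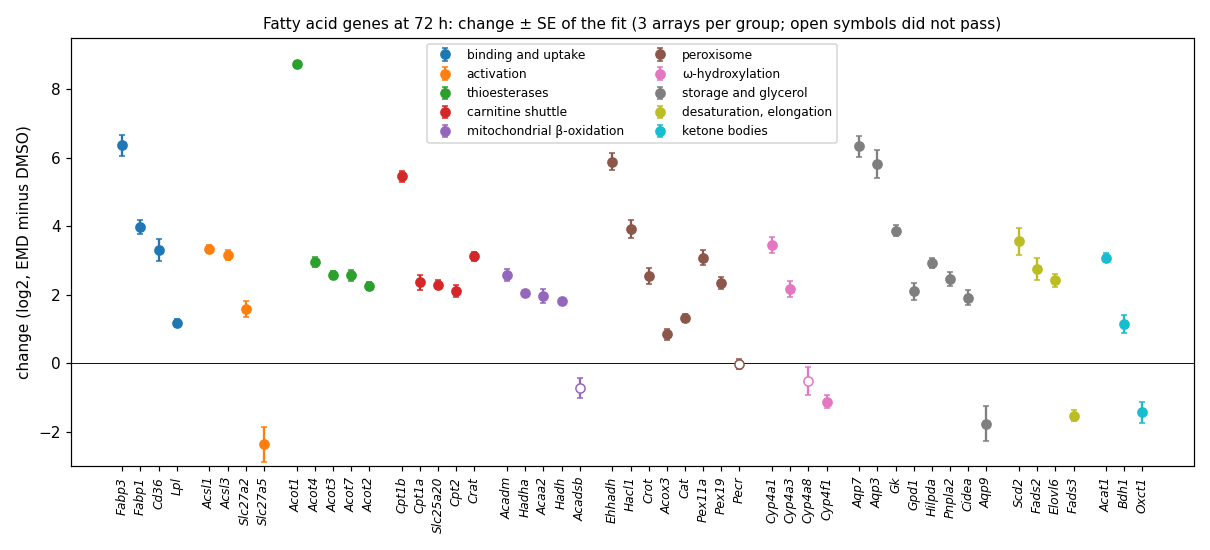
Change ± SE (y axis, log2 EMD minus DMSO, 3 arrays per group) of 50 genes of fatty acid and glycerol metabolism (x axis), coloured by step; open symbols did not pass. Slc27a5, Cyp4f1, Aqp9, Fads3 and Oxct1 lie below 0, the remaining filled symbols above it, from Acox3 at 0.84 to Acot1 at 8.72.

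Genes of fat storage rose as well. Of 21 genes of lipid droplets and lipolysis, 13 rose and none fell, with a median of 0.82. These included both sides of lipolysis, the lipase Pnpla2 (2.46 ± 0.19) with the monoglyceride lipase Mgll (2.71 ± 0.29, other probe sets 2.95, 0.16 and 2.76), and the inhibitors of Pnpla2, G0s2 (2.25 ± 0.19) and Hilpda (2.93 ± 0.15). Fitm2, which buds droplets from the endoplasmic reticulum, rose by 2.14 ± 0.12 and Cidea, a droplet protein of brown fat, by 1.92 ± 0.21. Plin2 and Plin5, the coats of droplets in liver and oxidative tissue, rose by 1.05 ± 0.08 and 1.67 ± 0.25. Plin1, the coat in adipocytes, had a change of 0.21 ± 0.13, adjusted p = 0.34, and Cidec, a protein of large droplets, a change of -0.01 ± 0.19, adjusted p = 0.98.

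Glycerol handling and triglyceride synthesis rose in 11 of 22 genes and fell in 2 (1 without DMSO replicate 1 or 3 or EMD replicate 2 or 3). Beside Aqp7, another glycerol channel, Aqp3, was at 4.13, 4.67 and 4.35 with DMSO and 9.75, 10.52 and 10.31 with EMD (5.81 ± 0.41). Gk, the glycerol kinase that follows these channels, was at 8.36, 8.91 and 8.17 with DMSO and 12.34, 12.40 and 12.32 with EMD (3.87 ± 0.16). The glycerol phosphate dehydrogenases Gpd2 of mitochondria (2.95 ± 0.24) and Gpd1 of the cytosol (2.10 ± 0.24), and Mttp, which loads lipid onto lipoproteins (1.82 ± 0.11), rose too. In contrast, Aqp9, the glycerol channel of the normal liver, was at 6.80, 6.62 and 6.98 with DMSO and 5.24, 4.98 and 4.90 with EMD. It fell by 1.76 ± 0.51, a call lost without DMSO replicate 1 or 3 or EMD replicate 2 or 3 (-1.76 to -1.67, adjusted p = 0.061 to 0.078) and with an intensity trend (adjusted p = 0.056). Gpam (1.55 ± 0.15), Agpat2 (1.68 ± 0.11), Dgat1 (1.35 ± 0.10) and Dgat2 (0.72 ± 0.11), which add the acyl chains in turn, rose. Their relatives Gpat4 (-0.03 ± 0.09, adjusted p = 0.86), Agpat1 (0.07 ± 0.12, adjusted p = 0.79), Agpat4 (-0.14 ± 0.15, adjusted p = 0.62) and Agpat5 (-0.10 ± 0.11, adjusted p = 0.61) did not pass. Lpin3, a phosphatidate phosphatase, fell (-0.50 ± 0.10).

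In fatty acid synthesis the genes of the main path did not pass while genes around it did. Fasn, the synthase, had a change of 0.37 ± 0.25, adjusted p = 0.37, Acaca, the carboxylase before it, a change of -0.18 ± 0.16, adjusted p = 0.55, and Acly, which supplies its acetyl-CoA, a change of -0.44 ± 0.15, adjusted p = 0.057, a call gained without EMD replicate 1 (-0.58, adjusted p = 0.016) and with array weights, dim probe sets left out, an intensity trend and the replicate block (adjusted p = 0.013 to 0.044). Of 14 genes 6 rose, led by malic enzyme Me1 (2.62 ± 0.21), Elovl6, which extends palmitate (2.42 ± 0.18), and Mlycd, which destroys malonyl-CoA (2.04 ± 0.09). Srebf1, the gene of the lipogenic factor SREBP-1, rose by 1.10 ± 0.25. The desaturases and elongases rose in 9 of 15 genes. Scd2, a stearoyl-CoA desaturase known mainly from brain, was at 3.29, 3.13 and 3.73 with DMSO and 7.79, 6.85 and 6.18 with EMD (3.56 ± 0.40, other probe sets 0.82, 0.28 and 0.10). Scd (2.09 ± 0.17), the Δ6-desaturase Fads2 (2.75 ± 0.31), the Δ5-desaturase Fads1 (1.63 ± 0.38) and Elovl5 (0.71 ± 0.17) rose, and Fads3, a relative, fell (-1.52 ± 0.16). Among 22 genes of cholesterol synthesis and uptake 7 rose and none fell, for example Hsd17b7 (1.74 ± 0.40), Insig1 (1.24 ± 0.20) and Lss (1.22 ± 0.17).

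Around pyruvate, Pdk4, the kinase that switches pyruvate dehydrogenase off, was at 7.67, 8.74 and 8.43 with DMSO and 12.76, 12.69 and 12.59 with EMD (4.40 ± 0.19). Of the other kinases, Pdk3 fell by 0.50 ± 0.13, a call lost without DMSO replicate 1 or EMD replicate 2 (-0.44 to -0.39, adjusted p = 0.072 to 0.084). Pdk1 had a change of 0.25 ± 0.12, adjusted p = 0.21, a call gained without DMSO replicate 3 (0.38, adjusted p = 0.044), and Pdk2 a change of -0.31 ± 0.16, adjusted p = 0.21. Pdp2, a phosphatase that opposes them, rose by 1.65 ± 0.17, and Mpc2, a subunit of the pyruvate carrier, by 1.69 ± 0.09, while its partner Mpc1 fell (-0.45 ± 0.09). Of 33 genes of glucose and glycogen metabolism 8 rose and 4 fell. Pc, which feeds pyruvate into glucose synthesis (1.84 ± 0.22), Fbp2 (2.50 ± 0.29) and Fbp1 (1.0 ± 0.20), the fructose bisphosphatases, and Gys2 rose. Pklr, the liver pyruvate kinase, was at 8.03, 8.30 and 7.84 with DMSO and 5.91, 5.83 and 5.36 with EMD (-2.36 ± 0.26). Slc2a2, the liver's glucose transporter, fell by 2.09 ± 0.14, and Gcgr, the glucagon receptor, by 1.79 ± 0.29. Pck1, the key enzyme of glucose synthesis, had a change of -0.43 ± 0.40, adjusted p = 0.56.

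Other mitochondrial genes were measured too. Of 56 genes of the respiratory chain and ATP synthase 18 rose, with rises from 0.21 to 0.51. That count was 8 without DMSO replicate 1 or EMD replicate 2 and 11 without DMSO replicate 3. The 1 fall was in Cox6a2, the muscle form of a cytochrome oxidase subunit (-1.79 ± 0.37). In the citric acid cycle 9 of 18 genes rose and 2 fell (0 without DMSO replicate 2 or 3 or EMD replicate 2 or 3 and 1 without DMSO replicate 1 or EMD replicate 1). The rises included the cytosolic aconitase Aco1 (1.78 ± 0.12) and the subunits of succinyl-CoA ligase, Suclg2 (0.94 ± 0.09), Suclg1 (0.83 ± 0.08) and Sucla2 (0.77 ± 0.08, other probe set 0.16). Of 38 mitochondrial carriers and uncoupling proteins 11 rose and 4 fell. Slc25a42, which brings in coenzyme A, rose by 2.93 ± 0.13. The uncoupling proteins Ucp2 and Ucp3 rose by 2.32 ± 0.24 and 1.89 ± 0.11, and Ucp1, that of brown fat, had a change of 0.05 ± 0.11, adjusted p = 0.84.

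The urea cycle, which turns ammonia into urea, fell in 7 of 15 genes of nitrogen handling, with 2 rises and a median of -0.47. Ass1, argininosuccinate synthase, was at 11.97, 12.85 and 12.84 with DMSO and 9.40, 9.72 and 9.36 with EMD. The nearest arrays of the groups lay 2.25 apart and the change was -3.06 ± 0.22. Car5a, the mitochondrial carbonic anhydrase that supplies bicarbonate to the cycle, was at 7.34, 8.25 and 8.16 with DMSO and 4.70, 5.00 and 4.91 with EMD (-3.05 ± 0.27). Otc, the step before Ass1, fell by 1.61 ± 0.32, Cps1, the entry step, by 0.54 ± 0.13, and Arg2, the arginase of other tissues, by 1.63 ± 0.24. The last steps did not pass, with Asl at a change of -0.22 ± 0.15, adjusted p = 0.37, and the liver arginase Arg1 at a change of 0.14 ± 0.16, adjusted p = 0.65. The rises were in Oat, which links ornithine to proline and glutamate (3.36 ± 0.29), and the aspartate carrier Slc25a13 (1.06 ± 0.14).

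Amino acid breakdown was mixed, with 9 rises and 11 falls among 46 genes, and the falls were 7 without EMD replicate 3. In the kynurenine path of tryptophan, Kmo (-1.66 ± 0.15) and Acmsd (-1.31 ± 0.23) fell. Aass, which starts lysine breakdown (-1.67 ± 0.28), and Hal, which starts histidine breakdown (-1.08 ± 0.13), fell as well. Csad, which makes the precursor of taurine (1.85 ± 0.20), and Gldc, of glycine cleavage (1.20 ± 0.18), rose. In branched-chain amino acid breakdown 7 of 20 genes rose and 3 fell (5 without DMSO replicate 1). Ppm1k, the phosphatase that activates the branched-chain ketoacid dehydrogenase, rose by 2.14 ± 0.35, and Bckdk, the kinase that inactivates it, fell by 0.49 ± 0.10.

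Among 31 cytochromes P450 of foreign compounds and steroids 9 rose and 5 fell (3 without DMSO replicate 2 or EMD replicate 3 and 8 with the replicate block). The largest change in this list was the fall of Cyp2c11, the main P450 of the adult male rat liver, at 11.56, 12.53 and 12.24 with DMSO and 8.15, 8.14 and 9.36 with EMD (-3.56 ± 0.35). EMD replicate 3 stood above the other EMD arrays, and 2.20 below the lowest DMSO array. In the other direction were Cyp3a23-3a1 (1.99 ± 0.17), Cyp2j4, which also makes epoxides of arachidonic acid (1.97 ± 0.32), Cyp2c6v1 (1.75 ± 0.25) and Por, the electron donor of these enzymes (1.50 ± 0.16). The P450 genes of a subfamily resemble each other, and their probe sets may share signal. Of 27 conjugation enzymes 2 rose and 7 fell. Glyat, which joins acyl groups to glycine, was at 6.33, 7.54 and 7.22 with DMSO and 4.37, 4.11 and 3.53 with EMD (-3.03 ± 0.35). Sult1e1, the oestrogen sulfotransferase (2.98 ± 0.67), and Sult1c3 (3.81 ± 0.44) rose, and Ugt2b1 fell (-1.56 ± 0.39).

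The antioxidant genes did not move as 1 group. Of 41 measured NRF2 targets and glutathione genes 8 rose and 10 fell, the rises being 5 without EMD replicate 2 or 3. Ephx2, the soluble epoxide hydrolase (2.77 ± 0.15), and Hmox1, heme oxygenase (1.87 ± 0.30), rose. The glutathione transferases Gstm3 (-1.17 ± 0.29) and Gstm2 (-0.83 ± 0.19) and the glutathione synthetase Gss (-0.93 ± 0.14) fell. Gpx1, the main glutathione peroxidase, had a change of 0.25 ± 0.10, adjusted p = 0.13. Of 14 aldehyde dehydrogenases, which oxidise the aldehydes of lipid breakdown among others, 4 rose and 2 fell, the rises being 2 without EMD replicate 3 and the falls 4 without DMSO replicate 1. The largest of each were in Aldh1a1, which makes retinoic acid (1.55 ± 0.19), and Aldh3b1 (-0.85 ± 0.17).

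Bile acid genes and transporters had 2 rises (1 without EMD replicate 2) and 6 falls among 29. Cyp8b1, the sterol 12α-hydroxylase that directs synthesis to cholic acid, was at 7.62, 8.70 and 8.45 with DMSO and 10.91, 10.97 and 11.15 with EMD (2.75 ± 0.43). Abcc2, an exporter of conjugates into bile, fell by 2.29 ± 0.31, and Abcc3, an exporter toward the blood, by 1.08 ± 0.17. Abcb11, the bile salt export pump, had a change of 0.44 ± 0.17, adjusted p = 0.097. Among apolipoprotein genes, Apoa5, which speeds the clearing of triglycerides, was at 10.48, 10.98 and 10.86 with DMSO and 8.96, 8.75 and 8.31 with EMD (-2.10 ± 0.18). Apoc4 (-1.72 ± 0.17) and Apoa1 (-0.75 ± 0.10) fell, Apoc3 had a change of 0.11 ± 0.07, adjusted p = 0.34, and Angptl4, an inhibitor of lipoprotein lipase, rose by 1.65 ± 0.13.

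Among the secreted proteins of the liver, the acute phase proteins with the IL-1 and IL-6 axis fell in 14 of 30 genes, with a median of -0.63 and 1 rise. Il1r2, the decoy receptor that binds interleukin-1 without signalling, was at 7.81, 8.63 and 9.10 with DMSO and 3.41, 3.62 and 3.73 with EMD. The EMD arrays were all under the median of all levels, and the change of -4.93 ± 0.32 was the largest fall of a named gene. Itih4 (-1.95 ± 0.20), A2m (-1.81 ± 0.18), Apcs (-1.43 ± 0.31), Serpina3n (-1.43 ± 0.25) and the factor Cebpd (-1.86 ± 0.21, other probe sets -1.93 and 0.17) fell, and Cebpb, a related factor, rose (0.97 ± 0.13). Hp and Orm1, 2 of the main acute phase proteins, had changes of -0.07 ± 0.10, adjusted p = 0.69, and -0.12 ± 0.07, adjusted p = 0.25.

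Coagulation and fibrinolysis fell in 10 of 29 genes and rose in 2, Serpine2 and prothrombin F2 (0.44 ± 0.08). The 3 fibrinogen chains fell together, Fga (-1.53 ± 0.19), Fgg (-1.42 ± 0.15) and Fgb (-1.22 ± 0.19, other probe sets -0.11 and -0.01). Klkb1, plasma prekallikrein (-2.29 ± 0.33), F5 (-2.24 ± 0.29), Serpind1, heparin cofactor II (-2.22 ± 0.26), tissue factor F3 (-2.21 ± 0.36) and Hrg (-2.04 ± 0.37) fell by over 2. F9 and Plg, plasminogen, had changes of -0.05 ± 0.18, adjusted p = 0.9, and 0.49 ± 0.27, adjusted p = 0.27. Complement fell in 9 of 29 genes (5 without EMD replicate 2 and 14 with the replicate block) and rose in 3. Vtn, vitronectin (-1.72 ± 0.22), C1r (-1.53 ± 0.35), Mbl2, which starts the lectin path (-1.37 ± 0.25), and Cfi (-1.17 ± 0.14) fell, and C3 had a change of -0.59 ± 0.26, adjusted p = 0.15, a call gained without EMD replicate 1 (-0.83, adjusted p = 0.048) and with array weights and the replicate block (adjusted p = 0.018 to 0.021). Among plasma carriers Ahsg, fetuin-A, fell by 2.19 ± 0.36 and its relative Fetub by 1.42 ± 0.26, while Serpina7, the thyroxine-binding globulin, rose by 1.84 ± 0.20.

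Among the chemokine genes, Ccl2 and Cxcl1 differed widely between the DMSO arrays. Ccl2, which draws monocytes, was at 8.12, 6.92 and 4.02 with DMSO and 4.02, 3.52 and 3.45 with EMD. It fell by 2.69 ± 0.64, a call lost with a fit on the compared arrays (adjusted p = 0.081). Cxcl1, which draws neutrophils, was at 9.53, 8.18 and 7.05 with DMSO and 6.90, 5.02 and 5.28 with EMD. It fell by 2.52 ± 0.73, a call lost without DMSO replicate 1 or 2 or EMD replicate 2 or 3 (-2.56 to -1.88, adjusted p = 0.057 to 0.12) and with an intensity trend (adjusted p = 0.059). In both genes DMSO replicate 3 was the lowest of its group and lay near EMD replicate 1. Within each replicate number, however, the EMD array lay below the DMSO array. Both calls were kept with the replicate block (adjusted p = 0.0004 for Ccl2 and 4.9e-05 for Cxcl1). Of 34 NF-κB and chemokine genes 8 fell and 3 rose, and the falls were 3 without DMSO replicate 1 or EMD replicate 3, 4 without EMD replicate 2, 5 without DMSO replicate 2 and 13 with the replicate block. Cxcl11 fell by 1.78 ± 0.20, and the inhibitor Nfkbia had a change of -0.09 ± 0.11, adjusted p = 0.68. Among 26 interferon-inducible genes 3 fell (11.5%, beside 13.0% of all genes), among them Tap1, a peptide transporter (-1.07 ± 0.23, other probe set -0.07). That count of 3 was 1 without DMSO replicate 2 or EMD replicate 3 and 10 with the replicate block, by which 2369 of all 14217 genes fell.

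The genes of the actin cytoskeleton, TGFβ signalling and matrix fell in 23 of 56 members, with a median of -0.49, and rose in 2 (0 without DMSO replicate 2 or EMD replicate 3 and 1 without DMSO replicate 1 or 3 or EMD replicate 2). The count of falls was 11 without DMSO replicate 1 or EMD replicate 2 and 12 without EMD replicate 3. Ccn2, a matricellular protein that TGFβ and YAP raise, was at 13.09, 13.03 and 12.99 with DMSO and 11.03, 9.46 and 10.00 with EMD (-2.87 ± 0.47). The DMSO arrays spread over 0.10 and the EMD arrays over 1.57. Vim, the intermediate filament of mesenchymal cells, was at 11.42, 11.95 and 11.83 with DMSO and 10.34, 10.35 and 9.76 with EMD (-1.58 ± 0.17). Ccn1 (-1.47 ± 0.23), the N-cadherin Cdh2 (-1.49 ± 0.16, other probe sets -1.47 and 0.11) and fibronectin Fn1 (-0.78 ± 0.11) fell, and the collagen Col1a1, a product of stellate cells, had a change of 0.00 ± 0.13, adjusted p = 0.99. Cav1, the coat of caveolae, fell by 2.41 ± 0.41 and Tmod1, which caps actin filaments, by 2.42 ± 0.42.

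Cell junction genes fell in 14 of 25 members and rose in none (8 without EMD replicate 2 and 9 without DMSO replicate 2 or EMD replicate 3). The claudin Cldn2 (-1.62 ± 0.30), the junctional adhesion molecule F11r (-1.28 ± 0.12), Ceacam1 (-1.17 ± 0.21), the scaffold Tjp1 (-1.05 ± 0.13, other probe set -0.31) and desmoplakin Dsp (-0.98 ± 0.15, other probe set 0.17) fell. Cxadr, a tight junction protein that serves as a virus receptor, was at 7.02, 7.69 and 7.56 with DMSO and 4.66, 4.94 and 4.65 with EMD (-2.68 ± 0.19). Gjb1, the main gap junction protein of hepatocytes, had a change of -0.33 ± 0.25, adjusted p = 0.46, and Ctnnb1, β-catenin, had a change of -0.10 ± 0.09, adjusted p = 0.55.

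Among cell death and stress genes falls outnumbered rises. Of 25 p53 targets and apoptosis genes 9 fell and none rose, among them Apaf1, the core of the apoptosome (-1.52 ± 0.31), the death receptor Fas (-0.86 ± 0.11, other probe sets -0.09 and -0.53), Sesn1 (-0.84 ± 0.14) and Ccng1 (-0.73 ± 0.13). Cdkn1a, the best known p53 target, had a change of -0.04 ± 0.13, adjusted p = 0.88. Of 38 genes of endoplasmic reticulum stress and the integrated stress response 10 fell and 2 rose (4 with the replicate block). Chac1 (-1.52 ± 0.19), Atf3 (-1.10 ± 0.15) and Nupr1 (-1.01 ± 0.11) fell, and Hspa5, the main chaperone, had a change of -0.47 ± 0.21, adjusted p = 0.14, a call gained with array weights and a fit on the compared arrays (adjusted p = 0.025 to 0.031). Vldlr, a lipoprotein receptor counted in that list, rose by 1.45 ± 0.16. Fgf21, a hormone that PPARα and this stress response both raise in liver, had a change of 0.40 ± 0.30, adjusted p = 0.45.

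Of 45 cell cycle and DNA replication genes 3 rose (1 without EMD replicate 3) and 3 fell (5 without DMSO replicate 3 and 5 with the replicate block). Cdk2, a kinase of the entry into DNA synthesis, rose (1.15 ± 0.14), and Myc (-0.69 ± 0.12) and the inhibitor Cdkn1b (-0.52 ± 0.10, other probe set -0.45) fell. Pcna, a marker of replication, had a change of -0.14 ± 0.23, adjusted p = 0.77. Of 33 proteasome subunits 5 rose (3 without DMSO replicate 3 or EMD replicate 2 or 3), by at most 0.40. Of 35 cytosolic ribosomal protein genes 5 fell (14.3%, beside 13.0% of all genes), by at most 0.31. That count of falls was 0 without DMSO replicate 1 or EMD replicate 1, 2 without DMSO replicate 2 or 3 or EMD replicate 3 and 3 without EMD replicate 2.

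The PPAR genes themselves did not pass. Ppara was at 5.67, 5.51 and 6.57 with DMSO and 6.55, 6.49 and 6.32 with EMD, with overlap, since DMSO replicate 3 lay above all other DMSO and all EMD arrays. Its change was 0.53 ± 0.20, adjusted p = 0.08, a call gained without DMSO replicate 3 (0.86, adjusted p = 0.00034) and with array weights (adjusted p = 0.017). Pparg was at 4.76, 5.15 and 5.53 with DMSO and 5.26, 5.73 and 5.94 with EMD, a change of 0.49 ± 0.24, adjusted p = 0.19, a call gained with the replicate block (adjusted p = 0.0089). Ppard, the remaining form, had a change of -0.06 ± 0.16, adjusted p = 0.87. Of 36 nuclear receptors and coactivators 12 rose and 2 fell. The partner receptor Rxrg was at 5.85, 5.87 and 5.68 with DMSO and 8.03, 8.31 and 8.03 with EMD (2.33 ± 0.18, other probe set 0.16). Nr1i3, the drug sensor CAR (1.92 ± 0.43), Nr1h4, the bile acid receptor FXR (1.31 ± 0.15), and Nr1h3, the oxysterol receptor LXRα (0.77 ± 0.10), rose. Rarb, a retinoic acid receptor (-1.82 ± 0.31), and Ahr, the dioxin receptor (-1.25 ± 0.26, other probe set 0.18), fell.

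Of 21 liver-enriched transcription factors 7 rose, among them Hlf (2.09 ± 0.30, other probe sets 1.56, 0.16 and 2.21), Creb3l3 (1.38 ± 0.13) and Cebpa (1.23 ± 0.23), and 4 fell (2 without EMD replicate 3). Hlf, Dbp (0.62 ± 0.13) and Nr1d2 (1.10 ± 0.20) are also output genes of the circadian clock, and Clock had a change of 0.34 ± 0.14, adjusted p = 0.11, a call gained with cyclic loess and the replicate block (adjusted p = 0.0082 to 0.045), other probe sets -0.03, 0.35 and 0.49. In the hormone axis 5 of 32 genes rose and 10 fell, and the falls were 5 without EMD replicate 3 and 6 without EMD replicate 2. Npy, neuropeptide Y, a signal of neurons, was at 9.89, 9.50 and 10.46 with DMSO and 6.16, 5.59 and 6.49 with EMD (-3.87 ± 0.38). Ghr, the growth hormone receptor (-1.78 ± 0.27, other probe set -0.79), Egfr (-1.05 ± 0.18, other probe sets -0.99 and -0.16) and Met, the receptor of hepatocyte growth factor (-1.01 ± 0.15), fell, and Igf1, the main product of growth hormone in liver, had a change of 0.18 ± 0.11, adjusted p = 0.35, other probe sets 0.57 and 0.47. Of 16 iron genes 6 rose and 3 fell. Hamp, hepcidin, was at 10.56, 9.53 and 7.78 with DMSO and 7.68, 6.89 and 6.69 with EMD. It fell by 2.20 ± 0.57, a call lost without DMSO replicate 1 or EMD replicate 3 (-2.01 to -1.57, adjusted p = 0.055 to 0.072), while Hjv, a coreceptor that raises it (1.71 ± 0.20), and Id1, a target of the same BMP signal (1.93 ± 0.16), rose.

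The remaining large falls had varied roles. Gna14, a G protein subunit, was at 8.66, 8.93 and 8.05 with DMSO and 5.69, 4.82 and 5.30 with EMD (-3.28 ± 0.60). Steap4, a metalloreductase, was at 9.58, 8.93 and 7.09 with DMSO and 6.42, 5.01 and 4.65 with EMD. It fell by 3.17 ± 0.90, a call lost without DMSO replicate 1 or 2 or EMD replicate 2 or 3 (-3.00 to -2.65, adjusted p = 0.075 to 0.099) and with an intensity trend (adjusted p = 0.058). The call was kept with the replicate block (adjusted p = 4e-06). Sult6b2, a sulfotransferase (-2.78 ± 0.33), Pkdcc, a secreted protein kinase (-2.71 ± 0.33), Nnat, neuronatin (-2.70 ± 0.36), and Lect2, a secreted chemotactic protein (-2.44 ± 0.16), fell with no overlap. Of the 20 genes with the largest falls, 5 ended under the median of all levels with EMD.

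**Figure D4:**
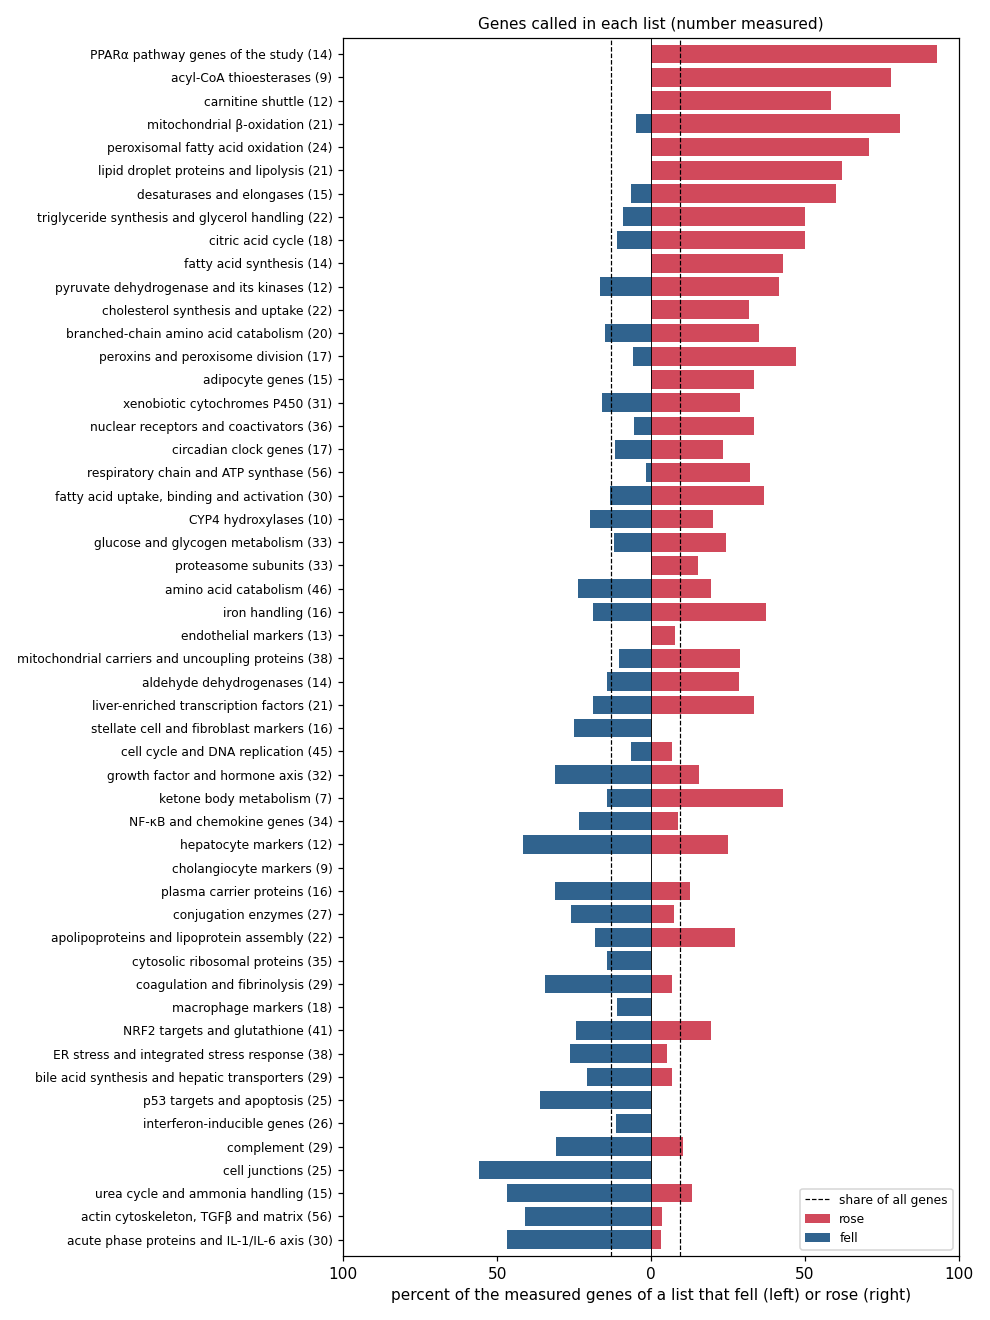
Percent of the measured genes of each list (y axis, number measured in brackets) that fell (left) or rose (right) with 30 µM EMD at 72 h; dashed lines mark the shares of all genes, 13.0% and 9.44%. Lists are ordered by median change. The thioesterase, carnitine shuttle and both β-oxidation lists stand near the top, and the acute phase, cytoskeleton, urea cycle and junction lists at the bottom.

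Markers of other liver cells were counted as well, beside 9.44% of all genes that rose and 13.0% that fell. Of the macrophage markers 11.1% fell and of the endothelial markers 7.69% rose, both under the share of all genes. Of the markers of stellate cells and fibroblasts 25.0% fell. Summed on the linear scale and written as log2, the 18 macrophage markers were at 10.31 to 11.02 on the DMSO arrays and 9.32 to 9.62 on the EMD arrays, and 2 of them fell (1 without DMSO replicate 1 or 3 and 4 with the replicate block). A sum on the linear scale follows its brightest members, and on the DMSO arrays Lyz2 weighed most in it. Lyz2, lysozyme of macrophages, was at 9.50, 9.66 and 10.55 with DMSO and 8.15, 7.93 and 8.12 with EMD (-1.83 ± 0.22), and C1qc, a complement chain that macrophages make, fell by 1.02 ± 0.28, a call lost without DMSO replicate 1 or 3 or EMD replicate 2 (-0.95 to -0.81, adjusted p = 0.051 to 0.092). Whether a fall of this kind comes from fewer such cells or from less RNA in each cannot be told apart in these cultures. The markers of stellate cells and fibroblasts were at 9.65 to 10.92 with DMSO and 9.07 to 9.61 with EMD, and 4 of 16 fell (1 without DMSO replicate 1 or EMD replicate 3 and 2 without EMD replicate 2), with their defining genes Col1a1, Pdgfrb and Lrat under the median of all levels on all 6 arrays. The endothelial markers were at 8.19 to 8.24 and 8.42 to 8.53, and 1 of them rose, Eng, a receptor of TGFβ ligands (1.31 ± 0.14). No cholangiocyte marker passed, at summed levels of 9.61 to 10.25 and 9.65 to 9.84. The part of such cells in the falls of complement, chemokine and matrix genes was not tested. Of 15 adipocyte genes 5 rose, Aqp7, Cidea, Lpl, Plin4 (0.78 ± 0.17) and Cfd, adipsin (1.26 ± 0.27), and Adipoq, Fabp4, Lep and Plin1, which define the cell type, were under the median on all 6 arrays.

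The response at 72 h was set against that at 24 h through an interaction term, with the vehicle arrays of each time as its own control. The changes differed in 292 probe sets (0.941%), 128 more positive (0.412%) and 164 more negative (0.528%) at 72 h, and in 1236 with the replicate block. That count was 194 without DMSO replicate 2 and 152 without DMSO replicate 3 at 24 h, 123 without DMSO replicate 2 and 475 without DMSO replicate 3 at 72 h, 151 without EMD replicate 1 and 129 without EMD replicate 3 at 24 h, and 123 without EMD replicate 2 and 152 without EMD replicate 3 at 72 h. Read by gene it was 185 genes (1.30%), 69 more positive (0.485%) and 116 more negative (0.816%).

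Several genes had a larger rise at 72 h than at 24 h. Fabp3 went from a change of 2.47 ± 0.31 at 24 h to 6.36 at 72 h, a difference of 3.89 ± 0.44, adjusted p = 0.00053. The difference was 4.39 ± 0.59, adjusted p = 0.0019 for Aqp3, 3.23 ± 0.57, adjusted p = 0.011 for Scd2 and 3.66 ± 0.40, adjusted p = 0.00053 for Lrrc39, a muscle protein of the sarcomere. The other probe sets of Scd2 did not pass here, with differences of 0.87, 0.38 and 0.18 (adjusted p = 0.23 to 0.69). For Krt23, a keratin, the change was 0.15 ± 0.16 at 24 h and 2.81 ± 0.16 at 72 h (difference 2.66 ± 0.23, adjusted p = 3.5e-05), and for Igdcc4, a membrane protein of the immunoglobulin family, 0.39 ± 0.27 and 3.16 ± 0.27 (difference 2.78 ± 0.38, adjusted p = 0.0027). Another probe set of Igdcc4 had a difference of 0.25, adjusted p = 0.38. In Sult1c3 the vehicle moved, with DMSO means of 6.82 ± 0.43 at 24 h and 3.93 ± 0.12 at 72 h against EMD means of 6.65 ± 0.25 and 7.74 ± 0.70 (difference 3.97 ± 0.62, adjusted p = 0.0059).

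Other changes were more negative at 72 h. Cyp2c11 had a change of -0.41 ± 0.35 at 24 h and -3.56 at 72 h, a difference of -3.15 ± 0.50, adjusted p = 0.0064. Hsd11b1, which activates glucocorticoids, went from -0.30 ± 0.21 to -2.26 ± 0.21 (difference -1.95 ± 0.30, adjusted p = 0.0047), and Il1r2 from -1.93 ± 0.32 to -4.93 (difference -3.00 ± 0.45, adjusted p = 0.0045). In Cd36 and Cyp4a3 the rise was smaller at 72 h, and in both the DMSO level had come up in the meantime. The DMSO mean of Cyp4a3 was 8.68 ± 0.08 at 24 h and 11.48 ± 0.71 at 72 h, and the EMD mean 13.32 ± 0.05 and 13.65 ± 0.10, a difference in change of -2.48 ± 0.31, adjusted p = 0.0012. The DMSO mean of Cd36 was 5.08 ± 0.56 and 9.88 ± 0.10, and the EMD mean 10.66 ± 0.53 and 13.18 ± 0.07. Its difference of -2.28 ± 0.46, adjusted p = 0.026 was a call lost without DMSO 24 h replicate 2 or 3, DMSO 72 h replicate 2, EMD 24 h replicate 3 or EMD 72 h replicate 2 or 3 (-2.31 to -2.00, adjusted p = 0.054 to 0.079) and with an intensity trend (adjusted p = 0.059). Acot1, the gene with the largest change, had 8.70 ± 0.09 at 24 h.

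**Figure D5:**
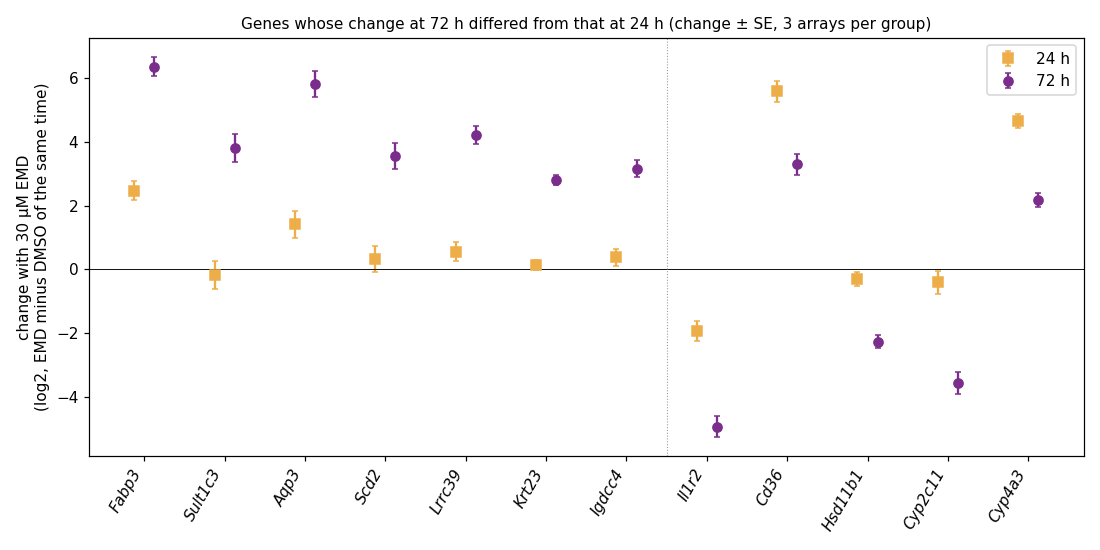
Change ± SE with 30 µM EMD (y axis, log2 EMD minus DMSO of the same time, 3 arrays per group) at 24 h (squares) and 72 h (circles) for 7 genes with a more positive change at 72 h (left of the dotted line) and 5 with a more negative one. Krt23 stood at 0.15 and 2.81, Cyp2c11 at -0.41 and -3.56.

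The last comparison was with the higher dose at the same time. Between 100 µM and 30 µM EMD at 72 h, 963 probe sets differed (3.10%), 388 higher (1.25%) and 575 lower (1.85%) at 100 µM, and 1933 with the replicate block. This count was 2541 without EMD 100 µM replicate 1, 141 without its replicate 2 and 177 without its replicate 3, and 492, 238 and 336 without EMD 30 µM replicate 1, 2 and 3. A fit on these 6 arrays alone called 141. Some genes raised by 30 µM were lower at 100 µM. Cyp8b1 had means of 8.26 ± 0.56 with DMSO, 11.01 ± 0.12 with 30 µM and 8.20 ± 1.28 with 100 µM, a difference between doses of -2.82 ± 0.43, adjusted p = 0.0034, a call lost with a fit on the compared arrays (adjusted p = 0.069). Faxdc2, a hydroxylase-domain protein, was at 4.13 ± 0.30, 9.45 ± 0.37 and 7.26 ± 0.46 (difference -2.19 ± 0.36, adjusted p = 0.005). Igdcc4 was at 4.24 ± 0.82 with 100 µM, with a difference of -2.03 ± 0.27, adjusted p = 0.0014, a call lost with a fit on the compared arrays (adjusted p = 0.06), and of -0.14, adjusted p = 0.45, by its other probe set.

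Other genes had higher levels with 100 µM than with 30 µM. Slc17a3, a phosphate and urate transporter, had means of 7.40 ± 0.31, 5.21 ± 0.24 and 6.89 ± 0.45 (difference 1.68 ± 0.20, adjusted p = 0.00071), so the middle value was the lowest. Tmsb15b2, a thymosin that binds actin, was at 5.65 ± 0.85, 4.29 ± 0.39 and 6.39 ± 0.45 (difference 2.10 ± 0.33, adjusted p = 0.0039), and its fall with 30 µM was a call lost with a fit on the compared arrays (adjusted p = 0.054). Soat1, which esterifies cholesterol, was at 4.87 ± 0.78, 6.06 ± 0.22 and 8.09 ± 0.70 (difference 2.03 ± 0.33, adjusted p = 0.0047), and its rise with 30 µM was a call lost without DMSO replicate 2 or 3 or EMD replicate 3 (0.96 to 1.09, adjusted p = 0.072 to 0.09) and with a fit on the compared arrays (adjusted p = 0.052). Some genes that did not pass at 30 µM were lower at 100 µM than at 30 µM. Dhrs7l1, a short-chain dehydrogenase, was at 10.77 ± 0.23 and 7.05 ± 0.76 (difference -3.72 ± 0.46, adjusted p = 0.00088), the organic anion transporter Slco1a1 at 7.13 ± 0.44 and 4.25 ± 0.45 (difference -2.88 ± 0.38, adjusted p = 0.0013), and Aadac, an esterase of the endoplasmic reticulum, at 8.61 ± 0.17 and 6.49 ± 0.58 (difference -2.11 ± 0.36, adjusted p = 0.0057). Against DMSO, the change with 30 µM was 0.86 ± 0.46, adjusted p = 0.24, for Dhrs7l1. It was -0.74 ± 0.38, adjusted p = 0.22, for Slco1a1 and 0.15 ± 0.36, adjusted p = 0.85, for Aadac.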

How the data were processed

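Affymetrix rat genome arrays, 1 per sample, had been run on 6 groups of 3. The deposited values are log2 expression estimates, which the authors made with the robust multichip average in Affymetrix Expression Console with its standard rat library. The sources used here do not give its version. In this method arrays are scaled to a common distribution, so a shift of all genes together would not be seen. Probe sets have no read depth, and the number of arrays limits the precision.

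Groups were taken from the labels. The 6 groups were fitted together by group means (18 arrays, 12 residual degrees of freedom) with limma 3.58.1 in R 4.3.3, using lmFit and eBayes, two-sided, with Benjamini-Hochberg adjustment over 31042 probe sets after 57 control probe sets were left out. The interaction of dose and time and the difference of doses came from the same fit. On simulated data made from these arrays, with 50 changed probe sets of each size among 31042, 58% of changes of 0.5 and 94% of changes of 1 were called for 30 µM EMD against DMSO at 72 h. In the data 5309 probe sets passed. The adjustment was thus stricter in the simulation, and its shares do not measure what the real comparison misses. Of the probe sets 20826 had 1 gene symbol, 436 several and 9780 none, and 20758 were matched to the GRCr8 gene table. The symbols came from the platform annotation, and 14217 genes were read.

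Genes were named by rule: the 20 largest rises and falls without overlap, up to 6 called members of each list in each direction with up to 4 that did not pass, every member of short lists, the PPAR genes, and up to 8 genes in each direction for time and dose. Not all genes that the rule gave are described, and 13 that it did not give (Serpina3n, Gpam, Agpat1, Agpat4, Fgg, Fgb, Fn1, Agpat2, Dgat1, Dgat2, Dsp, Plin2 and Plin5), with the genes listed for a promoter match, were chosen after their values were seen. The members and lists were chosen with earlier results of these data known.

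Per the study's methods the cells of each animal received all treatments. The deviations from the group means of EMD and DMSO arrays with the same number correlated at 0.44, 0.30 and 0.34 (others -0.36 to 0.11), so the numbers were taken as pairs and a fit with the replicate number as a block was an alternative. Unless a setting is named, values come from the fit without the block, whose error still held the differences between pairs. With the block 6790 probe sets passed in place of 5309 for 30 µM EMD against DMSO at 72 h. It was 1236 in place of 292 for the time difference and 1933 in place of 963 for the dose difference. The other alternatives were equal array medians, cyclic loess, array weights, a fit on the compared arrays, a filter on dim probe sets (mean of at least 5.08), an intensity trend, the mean over a gene's probe sets, and leaving out each array.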

Additional observations from a re-analysis of the deposited data

Results flagged for a closer look

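Of the 294 genes described with a value for 72 h, 44 had a response to 30 µM EMD that differed between 24 h and 72 h by the interaction term (adjusted p under 0.05 over all probe sets, limma), 19 of them more positive and 25 more negative at 72 h. Over all genes it was 185 of 14217 (1.30%), 69 more positive (0.485%) and 116 more negative (0.816%). Some of the 294 were named because this term passed, so their share cannot be read as a property of the described genes. The differences below are the change at 72 h minus the change at 24 h on the log2 scale, and 23 of the 44 kept their call whichever of the 12 arrays of the comparison was left out.

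Among these 23, several genes of lipid uptake, synthesis and uncoupling had more positive changes at 72 h. The difference was 3.89 for Fabp3, 4.39 for Aqp3, 3.23 for Scd2 and 1.76 for Ucp3. Lpl had changes of -0.13 at 24 h and 1.17 at 72 h (difference 1.30). In the other direction, some genes that PPARα is known to raise had a smaller rise at 72 h. Pdk4 had changes of 6.03 at 24 h and 4.40 at 72 h (difference -1.62), Cyp4a3 of 4.64 at 24 h and 2.17 at 72 h (difference -2.48), Angptl4 of 3.17 at 24 h and 1.65 at 72 h (difference -1.52) and Eci1 of 3.44 at 24 h and 2.0 at 72 h (difference -1.44). A second probe set of Pdk4 had changes of 4.23 at 24 h and 4.53 at 72 h (difference 0.30, adjusted p = 0.71), so the smaller rise of Pdk4 was seen with 1 of its 2 probe sets. Other probe sets did not pass in Eci1 either (0.23, adjusted p = 0.72), nor in Scd2 (0.18 to 0.87, adjusted p = 0.23 to 0.69), Igdcc4 (0.25, adjusted p = 0.38) or Fas (-0.08 and -0.35, adjusted p = 0.77 to 0.92).

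Among enzymes of foreign compounds and steroids, Cyp2c6v1 had changes of -0.35 at 24 h and 1.75 at 72 h (difference 2.10) and Cyp3a23-3a1 of 0.56 at 24 h and 1.99 at 72 h (difference 1.44). The difference was 3.97 for Sult1c3, -3.15 for Cyp2c11 and -1.95 for Hsd11b1. Of the 30 acute phase genes 4 had a more negative change at 72 h and none a more positive one, and of the 34 NF-κB and chemokine genes none was more negative and 1 more positive. These lists were not counted with the replicate block, by which Ccl2 (-2.61, adjusted p = 0.032) and Cxcl1 (-2.18, adjusted p = 0.018) had a more negative change. Differences were -3.00 for Il1r2, -1.71 for Itih4 and -1.58 for A2m, and the secreted protein Lect2 and the junction protein Cxadr had -1.85 and -1.53. The remaining ones were Lrrc39 (3.66), Igdcc4 (2.78), Krt23 (2.66) and Chrna2 (2.40).

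In 21 genes the call was lost without at least 1 array, with the sign kept throughout. Hmox1 had 2.33, a call lost without DMSO 72 h replicate 2 (adjusted p = 0.05), Scd 1.27, lost without EMD 24 h replicate 3 or EMD 72 h replicate 2 (adjusted p up to 0.059), and Serpina7 1.49, lost without EMD 72 h replicate 2 or EMD 72 h replicate 3 (adjusted p up to 0.059). The others lost it without 4 to 11 of the 12 arrays, each taken out alone, at adjusted p up to 0.14. More positive at 72 h were Fads2 (2.14), Gpam (0.99), Id1 (1.05) and Oat (1.86). More negative were Acot3 (-0.76), Apoa1 (-0.59), Apoa5 (-1.18), Apoc4 (-1.22), Ass1 (-1.58), Ccn1 (-1.41), Cd36 (-2.28), Creb3l3 (-0.80), Cyp4a1 (-1.69), F11r (-0.76), Fads3 (-1.01), Fas (-0.73), Slc2a2 (-0.92) and Vtn (-1.54). In 16 of these 21 genes the call was also lost under at least 1 of the other settings. No group here had more than 3 arrays, so no array was tested as lying apart from its group.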

How the results depend on the processing

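The count of 5309 probe sets for 30 µM EMD against DMSO at 72 h lay between 4455 (fit on the compared arrays) and 6790 (replicate block) under the other settings, and between 3857 and 4963 with 1 array left out. The difference between 72 h and 24 h, 292 probe sets, became 641 with array weights and 1236 with the replicate block, and 123 to 475 with 1 array left out. The share with a more positive change at 72 h was 43.8%, and 33.7% with the replicate block. The dose difference, 963 probe sets, became 3336 with array weights, 1933 with the replicate block and 141 with a fit on the compared arrays, and 141 to 2541 with 1 array left out. The cause was not tested. No value of a described gene turned its sign while called. Of 315 gene values, 315 kept their side of the threshold with equal array medians, 312 with cyclic loess, 310 with array weights, 309 with an intensity trend and 307 with a fit on the compared arrays. Of these 315 values the replicate block changed 8 calls, those given with the genes. Time differences were among the values for 12 genes and dose differences for 9. Those of other genes were not counted, and some gained a call with the block. Examples are the time differences of Serpine2 (adjusted p = 0.33, with the block 0.006) and Aqp7 (0.062 and 0.0082) and the dose difference of Aqp3 (0.17 and 0.031). The block moved 13 of 104 list counts by over 1.5 times, and the mean over a gene's probe sets moved 8. With 3 arrays per group, leaving out 1 array moved 8 to 23 of these counts. A gene that did not pass is not shown to be unchanged. A change of 0.5 was often missed on simulated data, which held fewer changes than were called here.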
